A study of Mus musculus with 23 samples.

Results

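A set of 10 genes of antigen presentation by major histocompatibility complex (MHC) class I was examined in mouse small intestine. They were listed by name for their place in the pathway. They are the classical heavy chains H2-D1 and H2-K1, the light chain B2m, the peptide transporter subunits Tap1 and Tap2, the loading chaperone Tapbp (tapasin), the inducible proteasome subunits Psmb8, Psmb9 and Psmb10, and the transcriptional activator Nlrc5. All 10 were found among the 55416 gene rows of the count tables, and all 10 were among the 13405 genes abundant enough to be tested. RNA was taken from mucosa scraped off the proximal small intestine, with 1 library per mouse. The mice were C57BL/6JRccHsd and are labelled female. From day 21 of age the mice ate a diet giving 16% of energy as galactose and 16% as glucose (galactose diet, n = 12) or one giving 32% of energy as glucose (glucose diet, n = 11), and tissue was taken on day 42. Apart from these sugars the labels describe the diets as identical, and no allele, transgene or other agent is named for either group.

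MHC class I molecules carry short peptides from proteins made inside a cell to its surface, where CD8 T cells read them. Proteasomes cut the peptides, the TAP transporter moves them into the endoplasmic reticulum, and tapasin helps load them onto a heavy chain bound to B2m. Interferons switch on most of these genes together and exchange the constitutive catalytic subunits Psmb5, Psmb6 and Psmb7 for the inducible Psmb8, Psmb9 and Psmb10. In the small intestine both the enterocytes and the T cells that lie between them express class I.

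The control sequences of the class I genes are shown because they hold the elements through which NLRC5 and the interferon and NF-κB pathways are known to act. RefSeq promoter windows (GRCm38.p6, 250 bases before to 50 after the start site) were at hand for 8 of the 10 genes, and those of Tap2 and Nlrc5 were not used here. NLRC5 acts with factors bound at a block that ends in an X2 element and a Y box. In the lines below, 5′ to 3′, capitals mark TGACG, the core of X2, and ATTGG, the Y box.
H2-K1, chr17:34000359-34000388, minus strand: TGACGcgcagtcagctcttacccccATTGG
H2-D1, chr17:35262993-35263022, plus strand: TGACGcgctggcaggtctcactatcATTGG
B2m, chr2:122147609-122147638, plus strand: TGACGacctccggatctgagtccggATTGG
The spacing is the same in the 3 genes, with 20 bases between the motifs. H2-K1 and H2-D1 share 23 of the 30 bases and H2-K1 and B2m share 13, of which the 10 motif bases are part. TGACG followed by 20 bases and ATTGG, on either strand, was found in 31 of 32851 promoters (0.0944%), belonging to 27 genes, a search composed after these sequences had been read. Alone, TGACG was in 20.8% of promoters and ATTGG in 37.4%.

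Further upstream the heavy chain genes carry a joint NF-κB and interferon enhancer. Capitals here mark the κB element and the interferon-stimulated element, searched as GGGNNNNNCC and AANNGAAA on both strands.
H2-K1, chr17:34000429-34000458, minus strand: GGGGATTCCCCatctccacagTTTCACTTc
H2-D1, chr17:35262923-35262952, plus strand: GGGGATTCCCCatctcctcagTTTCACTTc
B2m, chr2:122147541-122147570, plus strand: agaacatgaAACTGAAAatGGGAAAGTCCc
The H2-K1 and H2-D1 stretches are identical at 29 of 30 bases. In B2m the order of the elements is turned round. GGGNNNNNCC was present in 50.8% of all promoters and in 5 of the 8 members (H2-D1, H2-K1, B2m, Tap1 and Psmb9), and AANNGAAA in 23.9% and in the 3 genes shown. Searched as TTCNNNGAA, the interferon gamma activated site was in 8.3% of promoters and, of the members, in Psmb8.

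Tap1 and Psmb9 are transcribed away from each other from start sites 226 bases apart, and their promoter windows overlap by 275 bases. The stretch they share holds a TGACG motif, in capitals.
Tap1, chr17:34187458-34187487, plus strand: cccagagacaggTGACGacagagggtcctg
These matches describe letters in a window and are not evidence of binding.

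Library facts that bear on the values were as follows. Libraries held 15382583 to 17174721 counts in genes. Galactose replicate 12, labelled female, had 4 Xist counts and 225 counts over 4 Y-linked genes. Every other library had 778 to 2351 Xist counts and at most 1 Y-linked count, so the counts of replicate 12 do not match its label. Galactose replicate 2 had 582.9 CPM (counts scaled to library size) of pancreatic acinar transcripts against at most 7.495 elsewhere. Galactose replicate 7 was below the median of all 23 libraries for each of the 10 members, and was the lowest of its diet group for 7 of them. Glucose replicate 11 was among the 3 lowest libraries for 9 of the 10. Enterocyte markers summed to 67610 to 91150 CPM on galactose and 62600 to 96150 on glucose, so the labelled tissue was represented in every library.

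The median level was higher on galactose for 9 of the 10 members (all but Tapbp), and the fitted mean for all 10, but no member passed the test. The differences ran from 0.05 for B2m to 0.53 for Nlrc5 on the log2 scale, with a median of 0.28 against 0.00 over all tested genes. By edgeR's quasi-likelihood test with Benjamini-Hochberg adjustment over all genes, 0 of 10 members were called, as were 0% of the 13405 genes, and the smallest adjusted p, 0.135, was shared by H2-D1 and genes with smaller unadjusted p. At an unadjusted p under 0.05, 7 of the 10 members lay higher on galactose, against 8.63% of all tested genes. At any p, 49.5% of all tested genes had a higher fitted mean on galactose. These 2 shares are the background for the counts of higher genes in the lists below. In bulk tissue a change in the number of expressing cells and a change in RNA per cell cannot be told apart.

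The classical heavy chains, which hold the peptide, both had higher means on galactose, and H2-D1 had the smallest p of the 10 members. H2-D1 ranged from 1026 CPM over a median of 1378 to 1802 on galactose, and from 816.4 over 1043 to 1329 on glucose. It exceeded the highest glucose library in 7 of the 12 galactose libraries and the glucose median in 11. Its means were 1382 ± 217 and 1064 ± 163 CPM (SD, n = 12 and 11), a log2 difference of 0.38 ± 0.09 (SE; p = 0.000277, edgeR adjusted p = 0.135), and 0.172% of tested genes had a smaller p. H2-K1 ranged from 1609 over 2310 to 2798 CPM on galactose and from 1544 over 1968 to 2219 on glucose. The groups overlapped, but again 7 galactose libraries exceeded every glucose library. The log2 difference for H2-K1 was 0.23 ± 0.08 (SE; edgeR adjusted p = 0.199). H2-D1, H2-K1 and the nonclassical class I genes are close paralogs, and the handling of reads that map to several of them is not given in the sources used here, so how the counts are shared among these genes is uncertain.

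B2m, whose product pairs with every class I heavy chain, did not show such a separation. It ranged from 2112 over 2543 to 3172 CPM on galactose and from 2053 over 2413 to 3384 on glucose. The highest library of all was on glucose, and no galactose library exceeded it. Its log2 difference was 0.05 ± 0.09 (SE), with a 95% interval of −0.12 to 0.22 and an edgeR adjusted p of 0.83.

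**Figure D1:**
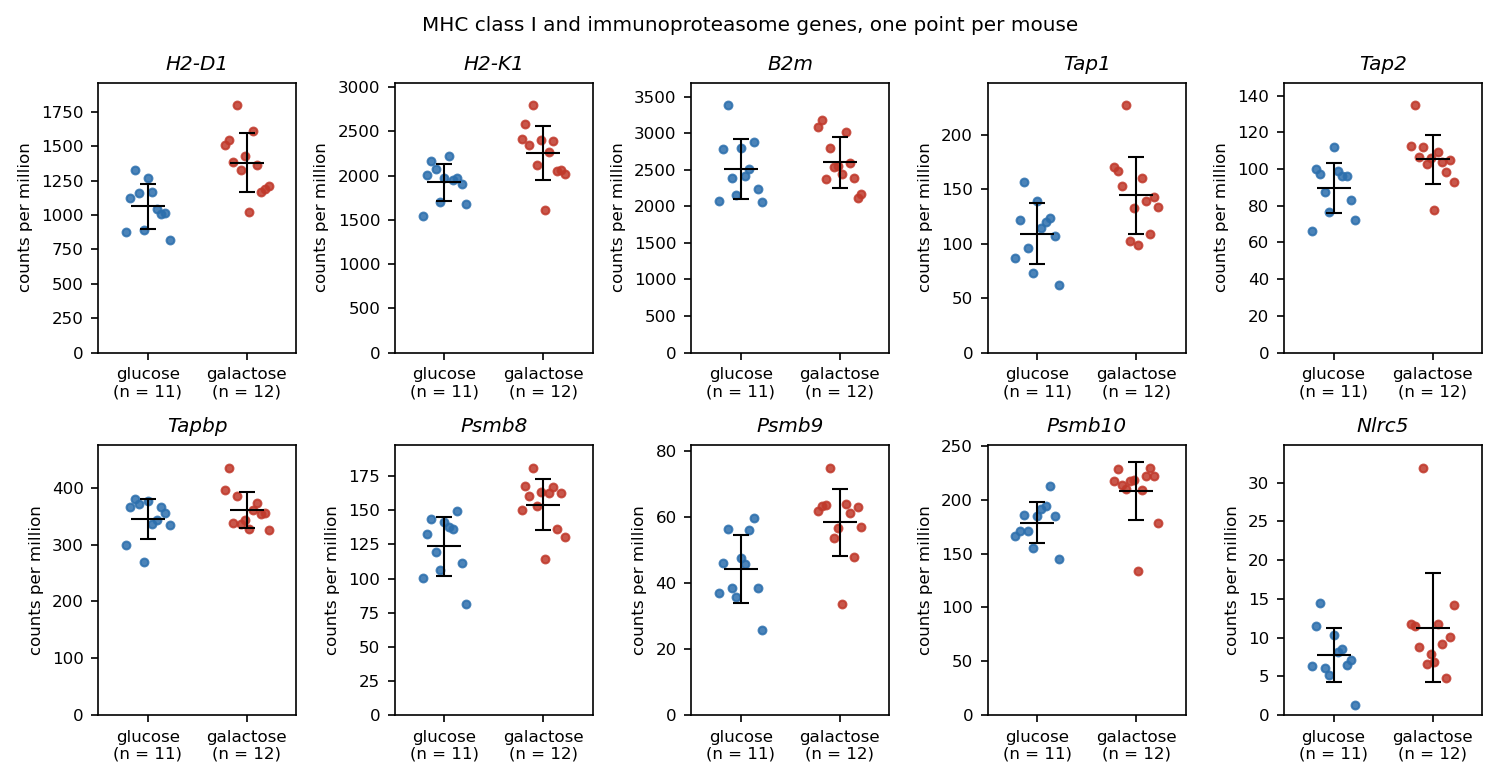
Level of each of the 10 genes in every library, in CPM on a linear axis that starts at 0, with the 12 galactose and 11 glucose libraries as points and bars for the mean and SD. The clouds are shifted for H2-D1, where 7 galactose libraries lie above every glucose library, and for Psmb8, where 9 do, while for B2m and Tapbp they lie side by side.

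Among the genes of peptide transport and loading, both transporter subunits had higher means on galactose and tapasin differed little. Tap1 ranged from 99.2 over 141 to 227 CPM on galactose and from 62 over 114 to 157 on glucose, with 4 galactose libraries above the highest glucose library. The difference was 0.41 ± 0.14 (log2, SE; edgeR adjusted p = 0.202). Tap2 ranged from 77.9 over 106 to 135 CPM on galactose and from 66.4 over 96 to 112 on glucose, a difference of 0.23 ± 0.08 (edgeR adjusted p = 0.205). The transporter is a dimer of these subunits, and both showed the same direction with broad overlap between diets. Tapbp ranged from 326 over 355.04 to 436 CPM on galactose and from 270 over 355.06 to 380 on glucose. Its medians were nearly equal, and 6 of 12 galactose libraries exceeded that of glucose. The log2 difference was 0.06 ± 0.06 (SE), with a 95% interval of −0.05 to 0.18 and an edgeR adjusted p of 0.653.

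The inducible catalytic subunits of the proteasome all had higher means on galactose. Psmb8 ranged from 114 over 162 to 181 CPM on galactose and from 81 over 133 to 149 on glucose. Of all members it had the most galactose libraries above the highest glucose library, 9 of 12. The log2 difference was 0.32 ± 0.09 (SE; edgeR adjusted p = 0.138). Psmb9 ranged from 33.8 over 61.5 to 75 CPM on galactose and from 25.7 over 45.6 to 59.7 on glucose, a difference of 0.40 ± 0.12 (SE; edgeR adjusted p = 0.16). Psmb10 ranged from 134 over 217 to 230 CPM on galactose and from 145 over 185 to 213 on glucose. In Psmb10 the lowest library of all, replicate 7, was on galactose, although 8 galactose libraries exceeded every glucose library. The log2 difference was 0.22 ± 0.07 (SE; edgeR adjusted p = 0.195). In the annotation GENCODE M21, Psmb9 and Tap1 overlap, and the antisense gene Gm20496, with 0 to 7 counts per library, overlaps Psmb8 and Tap2. The strand setting of the counting is not given in the sources used here.

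Nlrc5, the activator that drives class I transcription, had the lowest and most variable level of the 10 genes. It ranged from 4.75 over 9.65 to 32 CPM on galactose and from 1.3 over 7.13 to 14.5 on glucose. That is a 24.5-fold range over the 23 libraries, against 1.61-fold to 3.67-fold for the other members, and it rests on 21 to 552 counts per library. The high value of 32 CPM was galactose replicate 4, which was also the highest galactose library for H2-D1, H2-K1, Tap1, Psmb8 and Psmb9. The log2 difference of 0.53 ± 0.28 (SE; p = 0.0664, edgeR adjusted p = 0.384) was 0.26 without that library.

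The count of members called depended on 1 library and on the tool. Without galactose replicate 7, edgeR called 5 of 10 members higher on galactose, against 1.31% of 13338 genes called higher and 1.64% called in either direction. These were H2-D1 and Psmb10 (both adjusted p = 0.0309), Psmb9 (0.037), Psmb8 (0.0388) and H2-K1 (0.047). Replicate 7 was the lowest galactose library for most members, so leaving it out raised their galactose means. Without replicates 7 and 12 together the same 5 genes were called, against 1.92% of genes called higher and 2.4% in either direction. Leaving out glucose replicate 11, the lowest glucose library for most members, made the log2 differences of these 5 genes smaller. They were then 0.34 for H2-D1 and Psmb9, 0.27 for Psmb8, 0.21 for H2-K1 and 0.20 for Psmb10. None of the 5 passed there (edgeR, adjusted p from 0.239 to 0.306), and 0 genes were called in that fit. DESeq2 called H2-D1 alone (adjusted p = 0.0229), against 0.53% of 12072 genes called higher and 0.721% in either direction. With quality weights, limma-voom called H2-D1, Psmb8 and Psmb9, against 1.06% of genes called higher and 1.25% in either direction. Plain limma-voom called 0 members, against 0% of 13405 genes called in either direction. At the looser threshold of an unadjusted p under 0.05, 8.21% of all tested genes lay higher on galactose in that fit.

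T cell markers moved with the members. All 24 matched T cell and intraepithelial lymphocyte markers were tested, 23 of 24 were higher on galactose (11 at an unadjusted p under 0.05), none was at 0, and their summed level was 256.8 to 663.9 CPM on galactose and 105.3 to 504.8 on glucose. With the T cell score of each library as a covariate the difference was 0.24 for H2-D1, 0.13 for H2-K1, 0.17 for Psmb8, 0.20 for Psmb9 and Tap1, 0.13 for Psmb10, 0.08 for Tap2 and 0.31 for Nlrc5, and it turned to −0.10 for B2m and −0.01 for Tapbp. A library's length slope was also lower on galactose (−0.03 ± 0.06) than on glucose (0.03 ± 0.05, SD). It is the slope, on log2 transcript length, of log2 CPM centred on each gene's mean over all libraries. With that slope as a covariate the difference was 0.08 for Psmb10, 0.21 for Psmb8, 0.26 for Psmb9 and 0.16 for Tap2. It was 0.35 for H2-D1, 0.20 for H2-K1, 0.40 for Tap1, 0.03 for B2m, 0.06 for Tapbp and 0.75 for Nlrc5. With 6 surrogate variables the differences lay between −0.16 (B2m) and 0.11 (H2-D1), and 7 of the 10 were below 0.

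Compared per kilobase of the longest annotated transcript over all 23 libraries, levels spanned a wide range. B2m was highest at 2977 ± 433 CPM per kilobase (SD), followed by H2-K1 at 1120 ± 166 and H2-D1 at 585 ± 119. Psmb10 (148 ± 21.1) and Tapbp (122 ± 11.6) came next. These SDs are between libraries of both diets, and differences in level between genes of the same library were not tested. Psmb8 stood at 73.2 ± 13.1 CPM per kilobase. Tap1 was at 32.6 ± 9.26, Tap2 at 28.4 ± 4.49 and Psmb9 at 17.9 ± 4.29, and Nlrc5 was lowest at 1.27 ± 0.763. The polypeptides that form the surface molecule were thus the most abundant transcripts and their activator the least.

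Of the other genes of peptide supply and loading, 8 of 13 were higher and 5 lower on galactose, with a median log2 difference of 0.09. None passed the test, and at an unadjusted p under 0.05 there were 5 higher and 1 lower. Psme2, a subunit of the proteasome activator PA28, had 279 CPM on galactose and 236 on glucose (0.24 ± 0.07, log2, SE). Pomp, a proteasome assembly factor, differed by 0.17 ± 0.06, and the endoplasmic reticulum chaperones Hspa5 and Calr by 0.26 ± 0.09 and 0.16 ± 0.06. The constitutive catalytic subunits were 3 of 3 higher, each at an unadjusted p under 0.05, with Psmb7 at 0.18 ± 0.06, Psmb6 at 0.19 ± 0.07 and Psmb5 at 0.24 ± 0.11. Higher means were thus not limited to the inducible subunits.

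Nonclassical class I genes were 14 of 16 higher, 6 of them at an unadjusted p under 0.05 and none called, with a median log2 difference of 0.30. H2-T23, which encodes Qa-1, had 432 CPM on galactose and 322 on glucose, a difference of 0.42 ± 0.11 (SE). H2-T22 differed by 0.37 ± 0.09, H2-Q4 by 0.37 ± 0.10, and H2-Q7 by 0.80 ± 0.22 at a low level of 5.62 against 3.23 CPM. H2-Q2, named after its values were seen, had 1088 and 1085 CPM, a difference of 0.00 ± 0.06. Class II genes were 6 of 6 higher with a median of 0.17, H2-Ab1 by 0.22 ± 0.10, H2-DMb1 by 0.22 ± 0.11, H2-DMa by 0.18 ± 0.12 and H2-Eb1 by 0.15 ± 0.10.

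**Figure D2:**
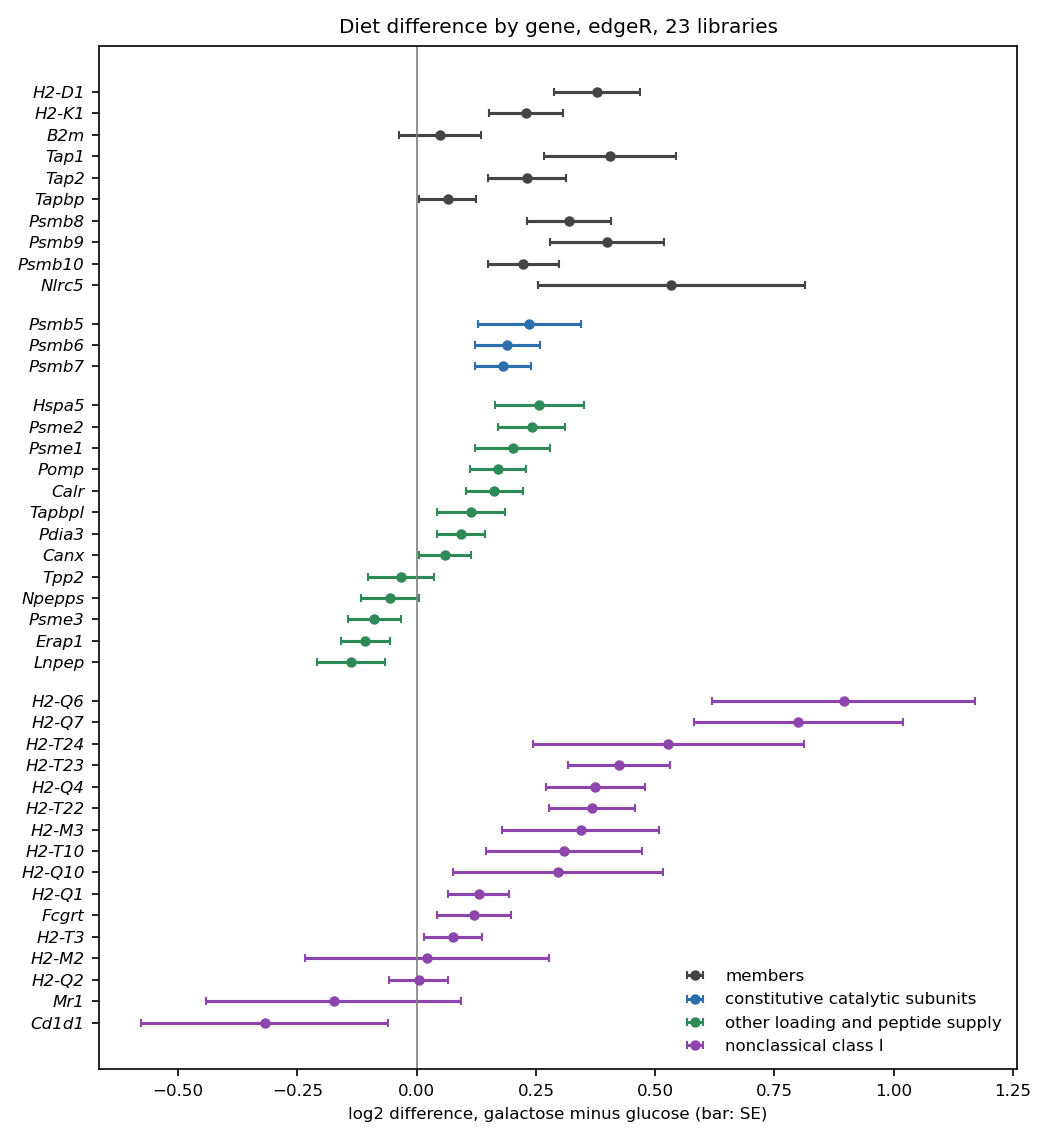
Log2 difference between the diets (galactose minus glucose, edgeR, 23 libraries) for the 10 members, the constitutive catalytic subunits, the other loading and peptide supply genes and the nonclassical class I genes, as points with bars for 1 SE. All 10 members and the 3 constitutive subunits lie above 0, and the loading genes lie on both sides of it.

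The known regulators of class I transcription showed no common direction. Of 22 tested, 11 were higher and 11 lower, 0 had an unadjusted p under 0.05, and the median log2 difference was −0.01. Socs1, a feedback inhibitor of cytokine signalling, differed by 0.30 ± 0.18 (SE), the transcription factor Irf1 by 0.10 ± 0.07 and the kinase Jak2 by −0.16 ± 0.09. Ifng, the gene of interferon gamma, was too low to be tested.

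Genes of the interferon responses were mostly higher on galactose too. All 30 tested type I interferon response genes were higher on galactose, against 49.5% of all tested genes, with a median log2 difference of 0.51. Of the 30, 21 had an unadjusted p under 0.05, against 8.63% of all tested genes that were higher at that threshold, and none was called. Ifi35 differed by 0.35 ± 0.08 (SE), Bst2 by 0.94 ± 0.23, Oas1a by 0.73 ± 0.20 and Xaf1 by 0.57 ± 0.17. Of 18 interferon gamma induced genes 16 were higher, 5 of them at an unadjusted p under 0.05, with a median of 0.19. The GTPases Irgm1, Igtp and Gbp3 differed by 0.62 ± 0.22, 0.61 ± 0.23 and 0.63 ± 0.25, and Ido1 by −0.24 ± 0.11.

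Markers of the other cell types in a scraping did not share this pattern throughout. The T cell genes of smallest p were Lck (0.57 ± 0.17, log2, SE), Trbc2 (0.60 ± 0.18), Cd2 (1.05 ± 0.33) and Cd5 (1.05 ± 0.35). Of 10 B and plasma cell markers 6 were tested and all 6 were higher, led by Cd79a (1.22 ± 0.51), Cd79b (0.96 ± 0.41) and Pou2af1 (0.55 ± 0.32). Their summed level had similar medians, at 107.5 CPM on galactose (52.96 to 246.3) and 104.6 on glucose (57.1 to 166.8). Macrophage and dendritic cell markers were 11 of 16 lower, led by Cd209a (−0.44 ± 0.16), Cd68 (−0.24 ± 0.10), Clec9a (−0.56 ± 0.30) and Flt3 (−0.27 ± 0.20). The summed level of the markers of these professional presenting cells overlapped almost wholly, at 136.5 to 248.8 CPM on galactose and 123.6 to 240.0 on glucose. Genes of high level weigh most in that sum, such as Csf1r with means of 39.3 CPM on galactose and 43.8 on glucose. Clec9a (0.612 and 0.907) and Flt3 (1.02 and 1.22) weigh little, so the sum says little about dendritic cells. Enterocyte markers were 7 higher and 4 lower, with Slc5a1 at 0.25 ± 0.09, Fabp1 at 0.21 ± 0.09, Anpep at −0.33 ± 0.13 and Lct at −0.22 ± 0.10. General epithelial markers were 4 higher and 2 lower, with Krt19 at 0.13 ± 0.11, Cdh1 at −0.06 ± 0.06, Epcam at −0.04 ± 0.07 and Krt8 at 0.04 ± 0.07. Smooth muscle markers were 8 of 8 lower, 0 of them at an unadjusted p under 0.05. They were led by Cnn1 (−0.43 ± 0.24), Synpo2 (−0.28 ± 0.20), Myh11 (−0.35 ± 0.24) and Actg2 (−0.25 ± 0.20). Fibroblast markers were 5 of 5 lower, again 0 of them at an unadjusted p under 0.05. They were led by Pdgfra (−0.30 ± 0.20), Col1a2 (−0.23 ± 0.18), Col1a1 (−0.21 ± 0.19) and Col3a1 (−0.12 ± 0.19). Of the acinar markers Cela1 was abundant enough to be tested (1.1 ± 0.44), beside the summed acinar level of 582.9 CPM in galactose replicate 2 and 3.753 to 7.495 in the other libraries. Of the adipose markers Cidec was tested (0.03 ± 0.08).

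Ratios of counts within a library do not depend on library scaling and were compared for 6 pairs, chosen with the differences of H2-D1 and H2-K1 known. Relative to B2m, the classical heavy chains were more abundant on galactose. The ratio of H2-D1 plus H2-K1 to B2m was 1.4 on galactose and 1.19 on glucose (back-transformed means), a log2 difference of 0.23 ± 0.06 (SE; two-sided permutation p = 0.0031, adjusted over the 6 ratios 0.0093). In 11 of 12 galactose libraries it exceeded the median of the glucose group. H2-D1 was also more abundant relative to H2-K1, with a ratio of 0.611 on galactose and 0.55 on glucose, a log2 difference of 0.15 ± 0.04 (permutation p = 0.00188, adjusted 0.0093), and all 12 galactose libraries lay above the glucose median. Both ratios were called in each of the 23 fits that left out 1 library, with adjusted permutation p-values of 0.00162 to 0.0189. With the T cell score held, a fit added after these values were seen, the log2 difference of the ratio to B2m was 0.26 (permutation, adjusted p = 0.0115). That of H2-D1 to H2-K1 was 0.11 and no longer passed after adjustment (permutation p = 0.0236, adjusted 0.0709).

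No ratio of an inducible to a constitutive proteasome subunit differed detectably between the diets. These are ratios of RNA counts, and the exchange of subunits in the protein complex was not measured. Psmb9 to Psmb6 differed by 0.23 ± 0.13 on the log2 scale (SE; permutation, adjusted p = 0.145), Psmb8 to Psmb5 by 0.12 ± 0.12 (adjusted p = 0.407) and Psmb10 to Psmb7 by 0.03 ± 0.07 (adjusted p = 0.614). For Psmb8 to Psmb5, 5 of 12 galactose libraries exceeded the median of the glucose group. Tap1 to Tap2 differed by 0.18 ± 0.10 (permutation, adjusted p = 0.145), with 9 of 12 above that median.

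**Figure D3:**
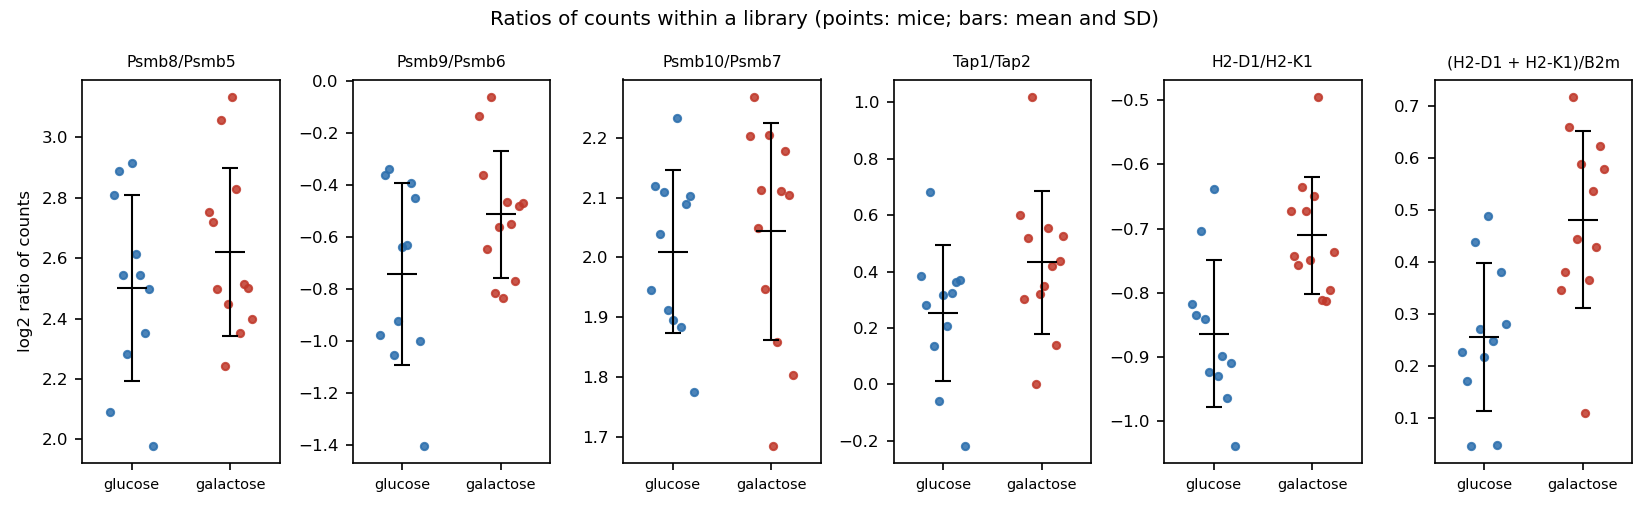
Log2 ratios of counts within each library for the 6 pairs of genes, with the 12 galactose and 11 glucose libraries as points and bars for the mean and SD. H2-D1 to H2-K1 and the heavy chains to B2m are shifted upward on galactose by 0.15 and 0.23, and the other ratios overlap more.

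Across the 23 libraries the 10 genes rose and fell together. All 45 pairs had a positive correlation of log2 CPM, with a median Pearson r of 0.744 (0.413 to 0.947), and 43 of 45 passed a two-sided permutation test adjusted over the 45 pairs. Between a member and a tested gene outside the set the median r was −0.0165, and the share of such pairs that would pass was not computed. For each member, 4 to 7 of the other 9 were among the 134 tested genes (1%) of largest r with it. Leaving out the 2 libraries farthest from the median of each pair's x-axis gene gave a median of 0.705, with 40 of 45 pairs above 0.5. With the diet means removed 42 pairs passed, so the shared movement was also present within diets. The median r was 0.691 on galactose, where 27 pairs passed, and 0.78 on glucose, where 39 did.

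The 6 pairs of largest r were as follows. Psmb8 and Psmb9 had r = 0.947 and rho = 0.88 (n = 23, r without the 2 farthest libraries 0.921, 0.884 on galactose and 0.951 on glucose). H2-D1 and H2-K1 had r = 0.919 and rho = 0.919 (without the 2 farthest 0.892, on galactose 0.916 and on glucose 0.872). Tap1 and Psmb9, which are transcribed away from each other, had r = 0.906 and rho = 0.901 (without the 2 farthest 0.854, on galactose 0.841 and on glucose 0.896). Tap2 and Psmb8 had r = 0.897 and rho = 0.879 (without the 2 farthest 0.866, on galactose 0.823 and on glucose 0.884). H2-D1 and Tap1 had r = 0.889 and rho = 0.856 (without the 2 farthest 0.826, on galactose 0.848 and on glucose 0.869). Nlrc5 tracked Tap1 more closely than any other member, at r = 0.884 and rho = 0.867 (without the 2 farthest 0.8, on galactose 0.872 and on glucose 0.884). Each of these r and rho values had a permutation p of 1e-05, the smallest that 100000 resamples can give, and adjusted p-values of 2.37e-05 for r and 3.46e-05 for rho. Tap1 and Psmb9 overlap in the annotation and H2-D1 and H2-K1 share sequence, and the part of this in their correlation was not tested.

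Mean r with the other 9 genes was lowest for B2m at 0.61, followed by Tapbp (0.624), Nlrc5 (0.644) and Psmb10 (0.662), and highest for Tap1 at 0.806. For B2m it was 0.494 within galactose and 0.769 within glucose, a difference that was not tested. The pairs that failed the test were B2m with Psmb10 (r = 0.413, permutation p = 0.0511, adjusted 0.0511; rho = 0.357, p = 0.0963) and Psmb10 with Nlrc5 (r = 0.416, permutation p = 0.0493, adjusted 0.0504; rho = 0.213, p = 0.326). The value for Psmb10 and Nlrc5 was 0.145 without the 2 farthest libraries, 0.0381 on galactose and 0.642 on glucose. The gene closest to Psmb10 was Cox6a1, a cytochrome c oxidase subunit (r = 0.89), and that closest to Tap1 was the interferon-inducible GTPase Igtp (r = 0.957). The length slope of the libraries was related to 4 members, by r and by rho. Psmb10 had r = −0.741 and rho = −0.739 (permutation p = 4e-05 and 9e-05, adjusted over 80 relations 0.000291 and 0.00114; −0.768 without the 2 farthest), with −0.645 on galactose and −0.646 on glucose. Psmb8 had r = −0.599 and rho = −0.652 (permutation p = 0.0024 and 0.00099, adjusted 0.00768 and 0.00494; −0.596 without the 2 farthest, −0.48 on galactose, −0.392 on glucose). Psmb9 had r = −0.582 and rho = −0.65 (permutation p = 0.00396 and 0.00117, adjusted 0.0113 and 0.0052; −0.606 without the 2 farthest, −0.361 on galactose, −0.478 on glucose). Tap2 had r = −0.507 and rho = −0.515 (permutation p = 0.014 and 0.0136, adjusted 0.0349 and 0.0376; −0.513 without the 2 farthest, −0.319 on galactose, −0.348 on glucose).

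**Figure D4:**
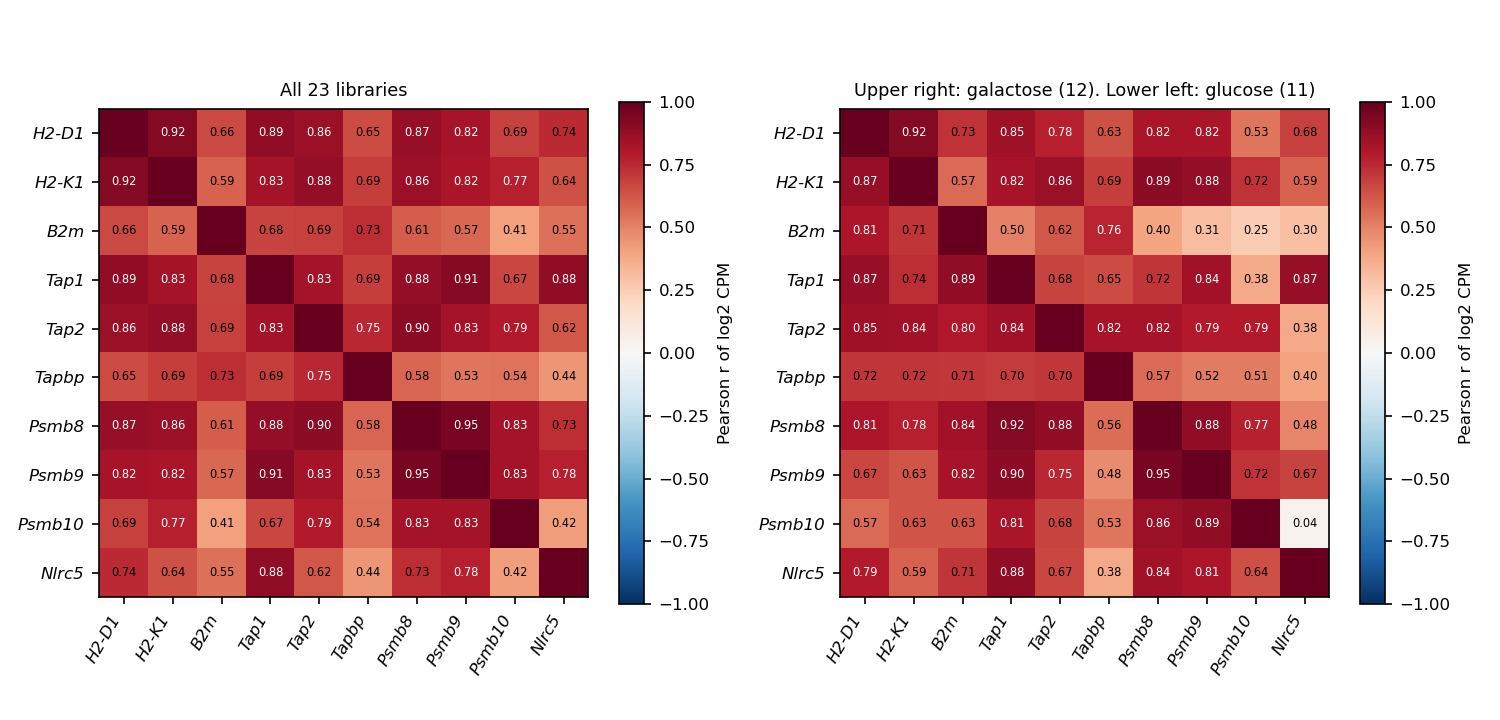
Pearson r of log2 CPM for every pair of the 10 genes, as coloured cells with the value written in, over all 23 libraries (left) and within galactose (right, upper triangle) and glucose (right, lower triangle). Every pair is positive, Psmb8 with Psmb9 is highest over all libraries at 0.947, and the pairs of B2m with the proteasome subunits and Nlrc5 are paler within galactose than within glucose.

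Outside the set, the tested genes whose levels were most like those of the members were picked by their mean r with the 10 members, among genes with a mean of at least 1 CPM. Igtp had the largest, 0.805, followed by the GTPase Ifi47 (0.797), Slfn2 (0.788), Rtp4 (0.786) and Oas1a (0.783). Next came Il18bp, which encodes the decoy receptor of interleukin 18 (0.782), Nmi (0.781), Xaf1 (0.781), Gm12250 (0.78) and Shisa5 (0.779). The members' own mean r with each other was 0.729 for comparison, and each of these 10 genes had an r of at least 0.541 with every member. These are descriptions over 23 libraries that share depth and composition.

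The mean log2 CPM of the 10 members followed the type I interferon response score with r = 0.93 (0.805 on galactose, 0.974 on glucose) and the T cell score with r = 0.772 (0.427 on galactose, 0.867 on glucose), given as descriptions without a test. Tested gene by gene over 80 relations, all 10 members were called with each of these lists by r, and 9 with each by rho. The share of all tested genes that would be called with these scores was not computed, so these counts have no background. For type I interferon genes r lay between 0.528 (Psmb10) and 0.947 (Tap1). Psmb10 was not called there by rho (0.351, permutation p = 0.101, adjusted 0.212), and its r was 0.408 without the 2 farthest libraries, 0.059 on galactose and 0.766 on glucose. Tapbp was not called by rho with the T cell markers (0.449, permutation p = 0.0326, adjusted 0.079), where its r was 0.522. For Nlrc5 the r of 0.608 with the T cell score was 0.352 without the 2 farthest libraries. Within galactose, r with that score ran from 0.0706 (Nlrc5) to 0.605 (Tap2). Within glucose it ran from 0.441 (Tapbp) to 0.876 (Psmb8). These values within a diet were not tested. With the type I interferon score, Tap1 had rho = 0.901 and 0.905 for r without the 2 farthest libraries (permutation p = 1e-05, adjusted 0.0001 for r). Nlrc5 had r = 0.927 and rho = 0.912 with the type I interferon score (permutation p = 1e-05, adjusted 0.0001; 0.83 without the 2 farthest, 0.967 on galactose, 0.901 on glucose). With interferon gamma induced genes 8 members were called by r and 7 by rho. With the macrophage, B cell, enterocyte and smooth muscle scores 0 members were called, and r for the members' mean was −0.0879, 0.244, 0.0983 and −0.0942. Both scores were themselves higher in mean on galactose, at 6.16 ± 0.43 against 5.62 ± 0.59 for type I interferon genes and 2.96 ± 0.38 against 2.48 ± 0.52 for T cell markers (mean log2 CPM, SD). The part of the interferon score in the diet differences was not tested.

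Holding the T cell score left 28 of 45 member pairs called, with a median partial r of 0.595. Of the 8 pairs of B2m that had passed, 7 no longer did. Its partial r was 0.358 with H2-D1, 0.295 with H2-K1 and 0.0003 with Psmb10, which had not passed before, and 0.609 with Tapbp, the pair that still passed. Psmb9 kept a partial r of 0.627 with H2-D1 and 0.666 with H2-K1. Holding the length slope left all 45 pairs called.

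**Figure D5:**
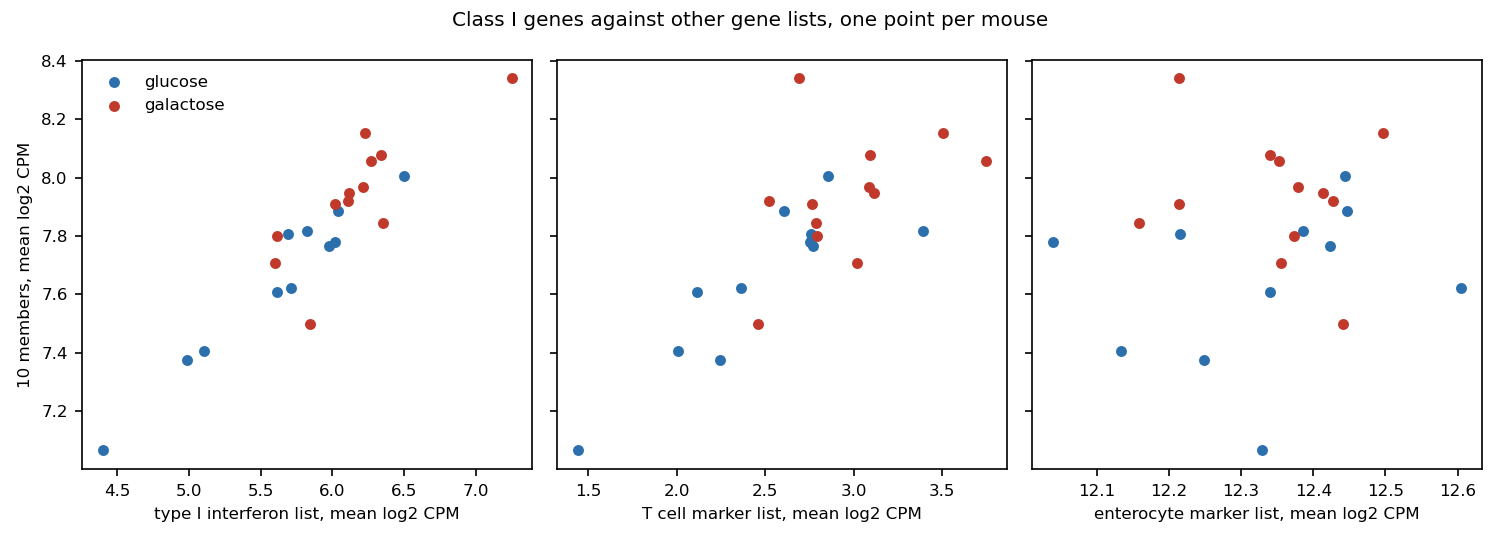
Mean log2 CPM of the 10 genes in each library (vertical axis) against the mean log2 CPM of the type I interferon, T cell and enterocyte lists, with 1 point per mouse coloured by diet. Points rise along the interferon score (r = 0.93) and the T cell score (r = 0.772) and show little slope along the enterocyte score (r = 0.0983).

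Some ratios followed the interferon score as well. Tap1 to Tap2 had r = 0.865 and rho = 0.765 with it (permutation p = 2e-05 and 7e-05, adjusted over 18 relations 0.00018 for r; 0.717 without the 2 farthest, 0.934 on galactose, 0.801 on glucose). Psmb9 to Psmb6 had r = 0.861 and rho = 0.767 (permutation p = 1e-05 and 3e-05, adjusted 0.00018 for r; 0.749 without the 2 farthest). Psmb8 to Psmb5 had r = 0.706 and rho = 0.568 (permutation p = 0.00014 and 0.00562, adjusted 0.00063 for r; 0.523 without the 2 farthest, 0.461 on galactose, 0.895 on glucose). Of the ratios called between diets, H2-D1 to H2-K1 had r = 0.646 and rho = 0.666 (permutation p = 0.00106 and 0.00076, adjusted 0.00382 for r; 0.492 without the 2 farthest, 0.309 on galactose, 0.632 on glucose). For the heavy chains to B2m r was 0.378 and rho 0.288 (permutation p = 0.073 and 0.178, adjusted 0.131 for r). For Psmb10 to Psmb7 r was 0.334 and rho 0.196 (permutation p = 0.118 and 0.365, adjusted 0.177 for r).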

How the data were processed

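The submitters' processing notes name STAR, HTSeq and GRCm39. Versions, annotation, strand setting and read filters were not given in the sources used here. Deposited by the authors were raw read counts, with 1 table for each mouse. Rows that name no gene (5, with 13.5% of reads) were left out. Symbols and longest-transcript lengths were joined by identifier, and no coordinates were carried between builds.

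The diet comparison used edgeR 4.0.16 under R 4.3.3 (filterByExpr, TMM scaling, quasi-likelihood F test, diet as the only term, Benjamini-Hochberg over 13405 genes, threshold 0.05). CPM are TMM-scaled. Correlations use log2 CPM with a prior count of 2, and permutation tests use 100000 two-sided resamples (SciPy 1.17.1). Scores are means of log2 CPM over a list's tested genes. Alternatives were other scalings and filters, DESeq2 1.42.0, limma-voom (limma 3.58.1) with and without quality weights, 6 surrogate variables (sva 3.50.0), T cell score or length slope as covariates, and each library left out. Replicate numbers follow deposit order and pair no mice. The tests were checked on simulated data.

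The text names all members, the 4 genes of smallest p in each companion list, the constitutive subunits and the 10 genes most like the members. A few genes taken by this rule are not reported here. Members, lists and ratios were chosen with earlier results of these data known. Matching found 13 of 14 names for other loading genes, 30 of 31 for type I interferon, 24 of 25 for T cells and all names of the other lists.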

Additional observations from a re-analysis of the deposited data

How the results depend on the processing

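By edgeR with other scalings or filters and by limma-voom, 0 members were called, as with a covariate. The number was 1 in DESeq2, 3 with quality weights in limma-voom, 5 without galactose replicates 7 and 12 together, and 0 to 5 when each library was left out, the 5 being without galactose replicate 7. With surrogate variables the log2 difference turned to −0.159 for B2m, −0.0301 for Tap1, −0.0478 for Tap2, −0.0695 for Tapbp, −0.0401 for Psmb9, −0.0267 for Psmb10 and −0.0974 for Nlrc5, and with the T cell score to −0.1004 for B2m and −0.0053 for Tapbp. The cause was not tested. Of the 45 pairs, 27 passed on galactose alone and 39 on glucose alone, 28 with the T cell score held, and 42 to 45 when each library was left out. The ratios called were 2 in each leave-out, 2 with the length slope held and 1 with the T cell score held, where the log2 ratio of Psmb8 to Psmb5 was −0.0222 and of Psmb10 to Psmb7 −0.0274; as a difference of medians Psmb8 to Psmb5 was −0.0363. Holding either score in the ratios was chosen after seeing the data. No paired analysis was possible because the replicate numbers only follow the order of deposit. Depth limits Nlrc5 most, at 21 to 552 counts.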
